A study of Arabidopsis thaliana with 16 samples.

Results

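The seed coat mucilage genes ARA12, AT3G10320 and AT2G22900, read by 3 of the 22746 Arabidopsis probe sets of the ATH1 array, were followed through the seed at the heart stage. They were chosen by name in the platform annotation, 1 probe set a gene. ARA12 (AT5G67360) encodes a subtilase, and the others encode glycosyltransferases. Seeds came from unmutated, untreated Ws-0 plants, 38 to 46 days old and grown under continuous light, and siliques of 1.2 to 1.5 cm held embryos 52 to 85 micrometres long. Laser microdissection of fixed, paraffin-embedded sections gave 7 groups: whole seeds (2 arrays), chalazal seed coat (3), seed coat (2), embryo proper (2), micropylar endosperm (2), peripheral endosperm (2) and chalazal endosperm (3). Between 5 and 6 ng of RNA per sample was amplified and hybridised, 16 arrays in all, which the labels call biological replicates without naming the plants behind each.

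Seed coat mucilage is a pectin-rich gel that the outermost cell layer of the Arabidopsis seed coat makes, stores under its outer wall and releases when the ripe seed is wetted. Its bulk is rhamnogalacturonan I, with cellulose, xylan-like side chains and galactoglucomannan holding an inner layer to the seed. ARA12, also called SBT1.7, is a wall-located protease needed for release of the gel, and loss of it raises pectin methylesterase activity. AT3G10320, published as MUCI21, is needed for xylose-containing side chains that attach mucilage to the seed surface. AT2G22900, published as MUCI10, adds galactose to glucomannan. Published names of loci that the annotation lists without a symbol come from a hand-written gene list.

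The embryo proper and the endosperm regions are filial, that is, of the new generation, the seed coat regions are maternal, and whole seeds hold both. Values are given as signal, the linear unit of the arrays, and as log2 levels after an offset and median centring. Background was set for each array from its 27 control probe sets for Bacillus genes, at their 95th percentile, and ranged from 31.1 to 161. The seed coat markers BAN, DFR and DELTA-VPE summed to 16759.8 to 25545 in the chalazal seed coat and 56038 to 57892 in the seed coat. They summed to 329.9 to 359 in the embryo proper, 2782 and 2806 in the micropylar endosperm, 2685 and 6583 in the peripheral endosperm and 464 to 882 in the chalazal endosperm. The sums were not made of the same marker in each region. DFR made up most of the sum in chalazal seed coat (12615 to 21184), where DELTA-VPE had 105 to 473. DELTA-VPE was higher in peripheral endosperm (1062 to 2249) and in micropylar endosperm (1758 to 2436), where it made up most of the sum. All 3 embryo markers with a probe set (BBM, PHV, CR4) were above background on both embryo proper arrays, where they summed to 3099 and 2828. They were not limited to the embryo: the sum was 317 to 586 in chalazal seed coat, 591 and 1029 in seed coat and 68.7 to 557 over the endosperm arrays. CR4 made up most of it in seed coat (552 and 953), and PHV in chalazal seed coat (212 to 405). Of the 2 endosperm markers with one, AGL62 and IKU2, neither was above background on the peripheral endosperm arrays, and both were so on 1 of 3 chalazal endosperm arrays. AGL62 without IKU2 was above it on 1 more chalazal endosperm array and on 1 whole seeds array. On both micropylar endosperm arrays AGL62 was just above it (51.9 and 85, against 48.2 and 67.8), and IKU2 was not.

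ARA12 transcript was most abundant in the seed coat. Its signal was 17884 and 12851 on the seed coat arrays, against 534 and 1120.1 in the embryo proper, 261 and 399 in the micropylar endosperm, 421 and 328 in the peripheral endosperm and 165, 27.2 and 278 in the chalazal endosperm. Both seed coat arrays lay above every array of these 4 filial regions, and 1 chalazal endosperm array was at or under its control background. Against the mean of the 4 filial regions the log2 difference of the seed coat was 5.27 ± 0.59 (SE, n = 2 and 9; limma, Benjamini-Hochberg adjusted p = 1.01e-07 over 19475 tested probe sets). In each single pair the gene was higher in the seed coat. The log2 differences were 4.33 ± 0.75 from the embryo proper, 5.32 ± 0.75 from the micropylar endosperm, 5.15 ± 0.75 from the peripheral endosperm and 6.29 ± 0.69 from the chalazal endosperm (adjusted p at most 0.000113). Among all tested probe sets 18.4%, 17.4%, 17.9% and 35.6% were called in these pairs, in the same order. In tissue of this kind, fewer cells that make a transcript and less of it per cell cannot be told apart.

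In whole seeds ARA12 signal was 14715 and 9710.0, a range that overlaps that of the seed coat. The level in whole seeds was higher than the equally weighted mean of the 6 compartments by 3.42 ± 0.57 (n = 2 and 14, adjusted p = 0.000354), and without whole seeds replicate 1 the difference was 3.09 with adjusted p = 0.0739. That mean averages log2 levels and gives each compartment the same weight, whatever its share of the seed. A mixed sample can therefore exceed it for a gene high in 1 compartment by averaging alone. The same limit holds wherever whole seeds are set against the compartments below, and its part in the differences was not tested. Between whole seeds and seed coat the log2 difference was -0.65, with a 95% interval from -2.19 to 0.90 (adjusted p = 0.831).

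In the chalazal seed coat, the maternal tissue at the pole where the vascular supply enters, the 3 arrays did not give 1 level. ARA12 signal was 794, 706 and 6318 there, so that replicate 3 lay far above the others while staying under both seed coat arrays. The group was lower than the seed coat by a log2 difference of -3.34 ± 0.69 (adjusted p = 0.00121), a 10.1-fold difference, and by -4.29 without replicate 3. It was lower than whole seeds as well; the log2 difference of whole seeds from it was 2.69 ± 0.69 (adjusted p = 0.0123), in a pair where 8.17% of all tested probe sets were called. That call was lost without either whole seeds array and without chalazal seed coat replicate 1 or 2. It was also lost with an offset of 1 (adjusted p = 0.0687). Against the filial mean it was higher by 1.93 ± 0.50 (adjusted p = 0.00387). Without replicate 3 this difference was 0.98 and lost its call (adjusted p = 0.141).

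Other mucilage genes and markers did not all follow ARA12 on chalazal seed coat replicate 3. AT5G49180 (PME58), a pectin methylesterase gene of the mucilage, had a signal of 659, 533 and 4154 on replicates 1, 2 and 3. TBL38, whose product removes acetyl groups from pectin in mucilage cells, had 3875, 4078 and 8010.3. Both were highest on replicate 3. AT2G22900 had 73.8, 289 and 246, highest on replicate 2. AT1G23200 (HMS), with 131, 186 and 306, and AT3G10320, with 275, 401 and 471, also had their highest signal on replicate 3. SEU, a regulator described further on, was lowest there, with 3714, 3566 and 1042, and the regulator gene AT1G76880 (DF1) had 1417, 1442 and 1114. AT1G56100 (PMEI14) had 3437, 4342 and 3486 and AT1G28240 (MUCI70) had 490.3, 465 and 532, so these did not set replicate 3 apart. The inner seed coat marker DELTA-VPE had 105, 473 and 237, against 21923 to 22961 in the seed coat. DFR had 17479.5, 21184 and 12615, and BAN had 1759.6, 3888 and 3908. Replicate 3 was thus nearly equal to replicate 2 for BAN, and it was not the highest of the 3 for DELTA-VPE or DFR. The ratio of 3' to 5' signal of the GAPDH control, a sign of how far amplified product reaches, was 19.5, 11.9 and 3.84. The part of these differences in the ARA12 values was not tested.

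**Figure D1:**
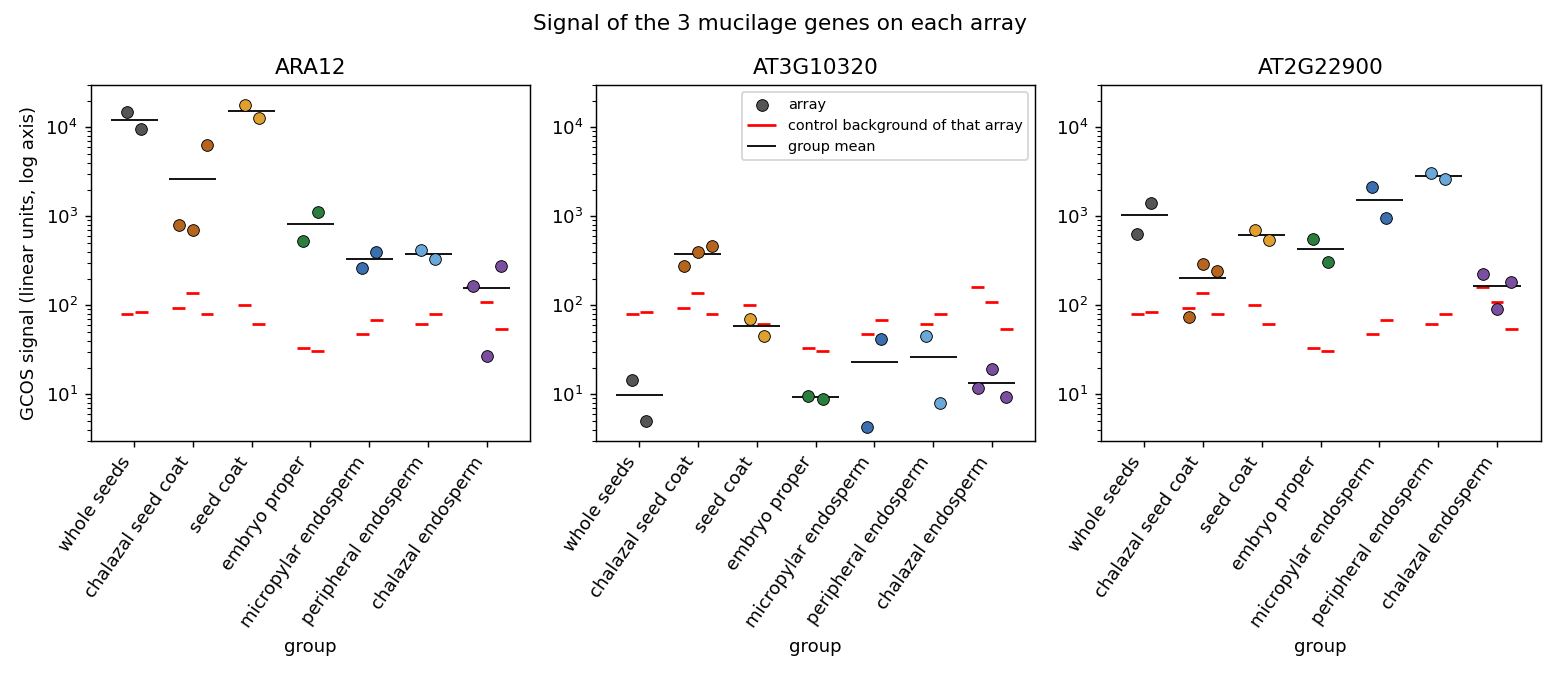
Signal of ARA12, AT3G10320 and AT2G22900 (log axis, linear signal units) on each of the 16 arrays by group. Points are arrays, black bars group means and red bars the control background of each array. ARA12 is highest in seed coat (12851 to 17884), AT3G10320 is above background on the 3 chalazal seed coat arrays (275 to 471) and on no other, and AT2G22900 is highest in peripheral endosperm (2609 to 3082).

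The level order of ARA12 over the 7 groups, as mean log2 ± SD, was 13.86 ± 0.28 in seed coat, 13.21 ± 0.48 in whole seeds, 10.52 ± 1.67 in chalazal seed coat, 9.53 ± 0.76 in embryo proper, 8.71 ± 0.21 in peripheral endosperm, 8.54 ± 0.21 in micropylar endosperm and 7.57 ± 1.23 in chalazal endosperm. Of its 6 steps between neighbours, that from whole seeds to chalazal seed coat passed the test. Chalazal seed coat and embryo proper were not separated (0.99, 95% interval -0.42 to 2.40), nor were embryo proper and peripheral endosperm (0.82, -0.72 to 2.37). Micropylar and peripheral endosperm differed by -0.18 (-1.72 to 1.37), and micropylar and chalazal endosperm by 0.97 (-0.44 to 2.38). In all, 13 of the 21 pairs of groups were called for ARA12, against 18.7% of all tests when the 21 pairs of all tested probe sets are pooled.

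AT3G10320 was detected in the chalazal seed coat alone. Its signal there was 275, 401 and 471, above the control background of 93.2, 137 and 80.8 on the same arrays. In the seed coat it was 70.8 and 45.6, under backgrounds of 102 and 62.6. Every array of the other 6 groups lay at or under its background, and the highest signal among the filial regions was 45. The gene passed the brightness filter for testing only through the chalazal seed coat arrays. Its tests of that group against others start from this choice and are not independent evidence of where it is high.

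The chalazal seed coat was at least 3.5-fold higher than the seed coat for AT3G10320 (log2 difference 2.15 ± 0.57, n = 3 and 2, adjusted p = 0.0117). A fold is given as at least the stated size where every array of the low side is at or under background; the background then stands in for the low signal. Each seed coat array was needed for this call: without replicate 1 the adjusted p was 0.0658 and without replicate 2 it was 0.143. Against the mean of the 4 filial regions the gene was at least 3.87-fold higher in the chalazal seed coat (log2 difference 2.95 ± 0.41, n = 3 and 9, adjusted p = 2.6e-06), and this call held without any 1 array.

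By single region, AT3G10320 in the chalazal seed coat was at least 6.59-fold above the embryo proper, 4.11-fold above the micropylar endosperm, 3.6-fold above the peripheral endosperm and 2.29-fold above the chalazal endosperm (adjusted p at most 0.000489). In these pairs 26.3%, 22.9%, 24.9% and 35% of all tested probe sets were called, in the same order. Whole seeds, which include the chalazal seed coat, had a signal of 14.5 and 5, at least 4.23-fold below it (adjusted p = 9.86e-05). With both sides under background, no fold was computed between seed coat and filial regions, whose log2 difference was 0.80 with a 95% interval from -0.19 to 1.80 (adjusted p = 0.251). Levels under background have no order, so the pattern of this gene has 1 group above background and 6 at or under it. It was called in 6 of the 21 pairs, the 6 that include the chalazal seed coat.

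The highest mean level of AT2G22900 was in peripheral endosperm. Its signal was 3082 and 2609 in the peripheral and 2134 and 962 in the micropylar endosperm, while the chalazal endosperm had 224, 91.9 and 181. The chalazal arrays lay below all 4 arrays of the other endosperm regions. Log2 differences from the chalazal endosperm were 3.67 ± 0.56 for the peripheral (adjusted p = 1.22e-05) and 2.71 ± 0.56 for the micropylar endosperm (adjusted p = 0.000514), in pairs where 29.5% and 29.7% of all tested probe sets were called. The chalazal array at 91.9 lay under its background of 109, so these are differences of the model and not exact sizes. The micropylar and peripheral endosperm differed by -0.96 (95% interval -2.22 to 0.31, adjusted p = 0.792). No call separated the micropylar endosperm from seed coat, embryo proper or whole seeds. The log2 differences of these from it were -1.27, -1.91 and -0.99 (adjusted p = 0.174, 0.101 and 0.362).

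Seed coat had less AT2G22900 signal than peripheral endosperm. Both seed coat arrays, at 701 and 549, lay well above background and under both peripheral endosperm arrays. The log2 difference of seed coat from peripheral endosperm was -2.23 ± 0.62 (adjusted p = 0.0105), a 4.69-fold difference, but the call was lost without any 1 of these 4 arrays. Against all 4 filial regions together the seed coat differed by -0.36 ± 0.48 (95% interval -1.35 to 0.63, adjusted p = 0.653). The peripheral endosperm arrays also carried the seed coat markers named above. Those summed to 56038 to 57892 in the seed coat, where AT2G22900 was lower, against 2685 and 6583 in the peripheral endosperm. Their part in the AT2G22900 values was not tested.

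The embryo proper, with a signal of 556 and 308, lay below the peripheral endosperm by a log2 difference of -2.87 ± 0.62 (adjusted p = 0.00382; 5.72% of all tested probe sets were called in this pair). That call was lost without embryo proper replicate 2 or peripheral endosperm replicate 1. Whole seeds had 627 and 1421 and differed from the mean of the compartments by 0.33 ± 0.47 (95% interval -0.63 to 1.28, adjusted p = 0.789).

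In the chalazal seed coat AT2G22900 had a signal of 73.8, 289 and 246, the first of them under background. The group was lower than the mean of the filial regions by a log2 difference of -2.06 ± 0.41 (n = 3 and 9, adjusted p = 0.00029), and without chalazal seed coat replicate 1 by -1.66. It was lower than peripheral endosperm by -3.93 ± 0.56 and than micropylar endosperm by -2.97 ± 0.56 (adjusted p = 5.16e-06 and 0.000227). No call separated it from the other filial regions. The log2 difference was -1.06 from the embryo proper (adjusted p = 0.17) and -0.26 from the chalazal endosperm (adjusted p = 0.719). Because 1 array of the low side lies under background, these are differences of the model and not exact sizes. The difference of -1.70 ± 0.56 from the seed coat stood at the threshold (adjusted p = 0.0495) and lost its call under 17 of 26 alternative settings. These included both seed coat arrays, chalazal seed coat replicates 1 and 3, and 6 arrays of other groups when left out singly, with adjusted p up to 0.279.

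As mean log2 ± SD, the order for AT2G22900 was 11.55 ± 0.15 in peripheral endosperm, 10.59 ± 0.98 in micropylar endosperm, 9.60 ± 0.75 in whole seeds, 9.32 ± 0.18 in seed coat, 8.68 ± 0.53 in embryo proper, 7.88 ± 0.47 in chalazal endosperm and 7.61 ± 0.69 in chalazal seed coat. No step between neighbours in this order passed the test, and 11 of the 21 pairs were called. That count fell to 6 without peripheral endosperm replicate 1 or whole seeds replicate 2, and to 7 without embryo proper replicate 2, peripheral endosperm replicate 2 or either seed coat array.

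**Figure D2:**
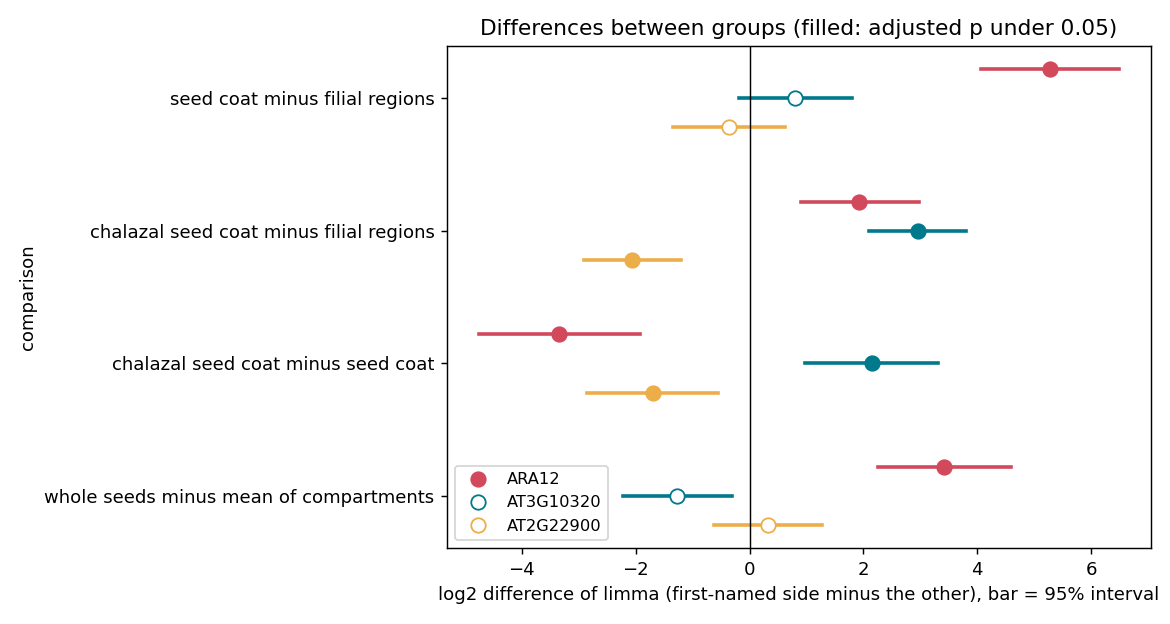
Log2 differences of limma for the 3 genes in 4 comparisons (horizontal axis, first-named side minus the other), with 95% intervals as bars and filled points where the adjusted p is under 0.05. In the chalazal seed coat against the seed coat, ARA12 (-3.34) and AT2G22900 (-1.70) lie left of 0 and AT3G10320 (2.15) right of it.

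The 3 genes thus gave 3 patterns, and counts of members called are read against the share of all tested probe sets. In seed coat against filial regions 1 of 3 was higher and none lower, where 11.9% of all tested probe sets were higher and 12.7% lower. In chalazal seed coat against the same filial regions 2 were higher and 1 lower, where 14% were higher and 17.3% lower. In chalazal seed coat against seed coat 1 was higher and 2 were lower, where 5.21% were higher and 5.64% lower. In whole seeds against the compartments 1 was higher and none lower, where 2.64% were higher and 0.935% lower. Several of these calls were lost under other settings or without 1 array, as given above. They were those of ARA12 in chalazal seed coat against filial regions and in whole seeds. Between both seed coat regions they were those of AT3G10320 and AT2G22900. The 4 comparisons share arrays. The mean of the compartments contains the arrays of both seed coat regions and of the filial regions, so each of these groups enters 3 of the 4 comparisons.

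Other mucilage genes from a list of 50 were looked up by locus. A named probe set was found for 13 of the 50, and 12 of these, the 3 genes above included, were bright enough to be tested. The list was chosen with earlier results of these data known. Its counts beside the shares of all tested probe sets are therefore description and not independent support. In seed coat against filial regions 7 of 12 were higher and none lower (11.9% and 12.7% of all tested probe sets), with a median log2 difference of 1.68, against -0.18 over all tested probe sets. Among the 7, AT5G04160 (UUAT1) stood at the threshold (adjusted p = 0.0496). In chalazal seed coat against filial regions 9 were higher and 2 lower (14% and 17.3%), with a median of 1.55 against -0.10. Between chalazal seed coat and seed coat 2 were higher and 6 lower (5.21% and 5.64%), with a median of -1.30 against 0.05. These counts were not stable. With 1 array left out, the number higher fell to 1 or 0 in 12 of 16 fits, and the number lower fell to 3 without seed coat replicate 2. With an offset of 1 on the log scale, 0 were higher and 3 lower. For whole seeds against the compartments 4 were higher and none lower (2.64% and 0.935%), with a median of 0.83 against -0.23, and 2 were higher without whole seeds replicate 1.

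Of 5 tested genes that modify or release mucilage, ARA12 included, 4 were higher in seed coat than in filial regions, where 11.9% of all tested probe sets were higher. These had the 4 largest differences among the 12. AT5G49180 (PME58) had a signal of 28642 and 29168 in seed coat, against 4.19 to 286 over the 9 filial arrays. It was higher in seed coat by a log2 difference of 7.70 ± 0.64 (adjusted p = 6.71e-10). It was lower in chalazal seed coat than in seed coat by -4.69 ± 0.74 (adjusted p = 4.77e-05), the same direction as ARA12.

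AT1G56100 (PMEI14), a pectin methylesterase inhibitor gene, had 3437, 4342 and 3486 in chalazal seed coat, against 13828 and 23061 in seed coat. Its log2 differences from filial regions were 3.56 ± 0.47 in the chalazal seed coat (adjusted p = 9.77e-07) and 5.88 ± 0.55 in the seed coat (adjusted p = 5.17e-09). Chalazal seed coat was lower than seed coat by -2.31 ± 0.64 (adjusted p = 0.017), a call lost without either seed coat array (0.0571 and 0.253) and with an offset of 1 (0.15).

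TBL38 was bright in both maternal regions, at 3875 to 8010.3 in chalazal seed coat and 8490.0 and 9409.8 in seed coat. The difference between them of -0.89 had a 95% interval from -2.14 to 0.35 (adjusted p = 0.417). It exceeded the filial mean by 5.64 ± 0.44 in chalazal seed coat (adjusted p = 9.28e-11) and by 6.53 ± 0.52 in seed coat (adjusted p = 3.44e-10). AT1G23200 (HMS), a pectin methylesterase gene of seed tissues, stood apart from these, with 1355 and 462 in whole seeds, 131 to 306 in chalazal seed coat and 415 and 41.6 in seed coat. It was called higher in whole seeds than in the compartments (2.64 ± 0.59, adjusted p = 0.00788), though not without whole seeds replicate 1 (adjusted p = 0.449) or with an offset of 1 (0.065). The peroxidase gene AT3G50990 (PRX36) was too dim to be tested, with all seed coat and chalazal seed coat arrays at or under background.

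Among 5 tested genes of polysaccharide synthesis, AT2G22900 and AT3G10320 included, 3 were higher in seed coat than in filial regions, read against the same 11.9%. AT5G15740 (RRT1), a rhamnosyltransferase gene for the rhamnogalacturonan backbone, had 41.2 to 56.1 on the 3 chalazal seed coat arrays, all under background, against 467 and 829.9 in seed coat. It was at least 5.19-fold lower in chalazal seed coat than in seed coat (log2 difference -3.13, adjusted p = 0.00167), a call lost without seed coat replicate 2 (0.0708) and with an offset of 1 (0.0584). Against filial regions it was higher in seed coat by 2.68 ± 0.57 (adjusted p = 0.000739), which was also lost without that array (0.0586). AT1G28240 (MUCI70), another gene needed for mucilage pectin, had 465 to 532 in chalazal seed coat and 481 and 981 in seed coat. It was higher than in filial regions in both, by 1.46 ± 0.39 and 1.98 ± 0.46 (adjusted p = 0.00494 and 0.00178). Without seed coat replicate 1 the seed coat call was lost (0.124).

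AT5G04160 (UUAT1), a transporter gene that supplies uronic acid precursors to the Golgi, differed between the maternal regions in the opposite direction to AT3G10320. Its signal was 9.74, 24.1 and 77 in chalazal seed coat, under background on all 3 arrays, and 1448 and 809.7 in seed coat. Chalazal seed coat was at least 8.84-fold lower than seed coat (log2 difference -4.24 ± 0.60, adjusted p = 9.8e-06). In micropylar endosperm the gene had 1220.4 and 1223, within the range of the seed coat. Its seed coat difference of 1.39 ± 0.52 from filial regions stood at the threshold (adjusted p = 0.0496). The call was lost in 12 of 16 fits with 1 array left out, by arrays of every group except the chalazal seed coat (adjusted p up to 0.42), and with an offset of 1, without the filter, with a stricter filter and without whole seeds.

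Of 20 regulators on the list, 2 could be tested, and both were higher in chalazal seed coat than in filial regions, where 14% of all tested probe sets were higher. SEU, a transcriptional co-regulator, had 3714, 3566 and 1042 in chalazal seed coat, against 80.1 to 1375 over the filial arrays. Its difference from filial regions was 1.60 ± 0.47 (adjusted p = 0.0096), and the call was lost without chalazal seed coat replicate 1 (0.109) or 2 (0.0693). AT1G76880 (DF1), a trihelix transcription factor gene, had 1417, 1442 and 1114 there, against 161 to 1021 in filial regions, a difference of 1.50 ± 0.37 (adjusted p = 0.00219).

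**Figure D3:**
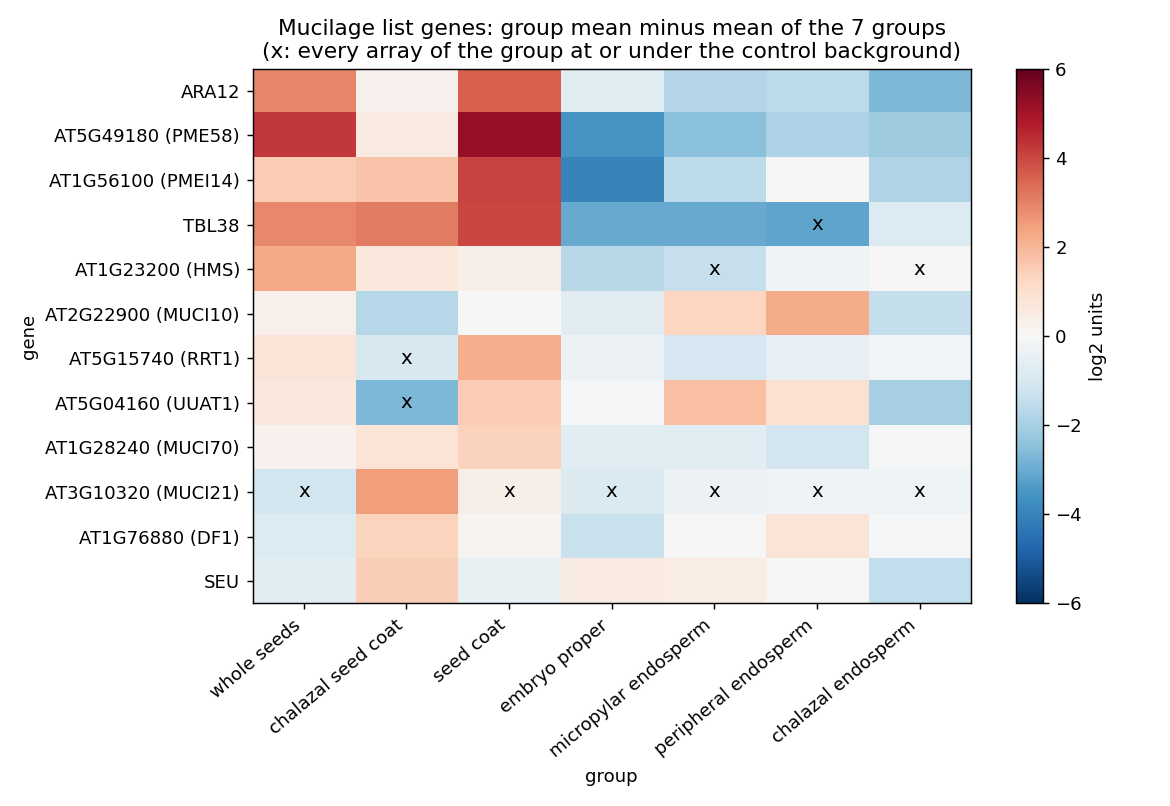
Group means of the 12 tested mucilage list genes minus each gene's mean over the 7 groups (log2 units, colour), with genes as rows and groups as columns. A cross marks a group whose arrays all lie at or under background. ARA12, AT5G49180 (PME58), AT1G56100 (PMEI14) and TBL38 are high in the seed coat column, while AT3G10320 has crosses in every column except chalazal seed coat.

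For each of the 3 genes the 5 genes nearest in pattern were found among tested probe sets that name 1 gene. Nearness was the root mean square difference between the 7 group means, each gene centred on its own mean, so it says nothing of absolute level. Because the genes were picked by these same means, a shared peak group follows from the choice and is not a separate result. Nearest to ARA12 were AT3G52870 (0.43 log2 units), EXGT-A3, a xyloglucan-modifying enzyme gene (0.56), AT3G16370 (0.60), AT1G56700 (0.62) and AT5G39220 (0.63). By that choice, all had their highest mean in seed coat and the next in whole seeds, 3.06 to 3.94 and 2.24 to 2.60 log2 units above their own average.

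Nearest to AT2G22900 were AT2G30990 (0.29), SBPASE, which encodes a chloroplast enzyme of carbon fixation (0.30), AT3G23760 (0.37), RALFL33, a gene of a small signalling peptide (0.39), and AT1G32220 (0.43). SBPASE was above background on all 16 arrays, with a signal between 367 and 9485. These 5 genes, being chosen by pattern, had their highest mean in peripheral endosperm, 1.74 to 2.29 log2 units above their own average.

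Nearest to AT3G10320 were AT5G44680 (0.35), the glycosyltransferase gene UGT76D1 (0.39), AT1G25230 (0.40), AT1G70250 (0.42) and AT3G12730 (0.42). They were above background on 2 to 4 of 16 arrays each. Being chosen by pattern, all 5 had their highest mean in chalazal seed coat, 1.58 to 2.44 log2 units above their own average. The number of the 5 kept under other settings was 2 to 5 for ARA12, 3 to 5 for AT2G22900 and 1 to 5 for AT3G10320, where 1 was the value without chalazal seed coat replicate 1.

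**Figure D4:**
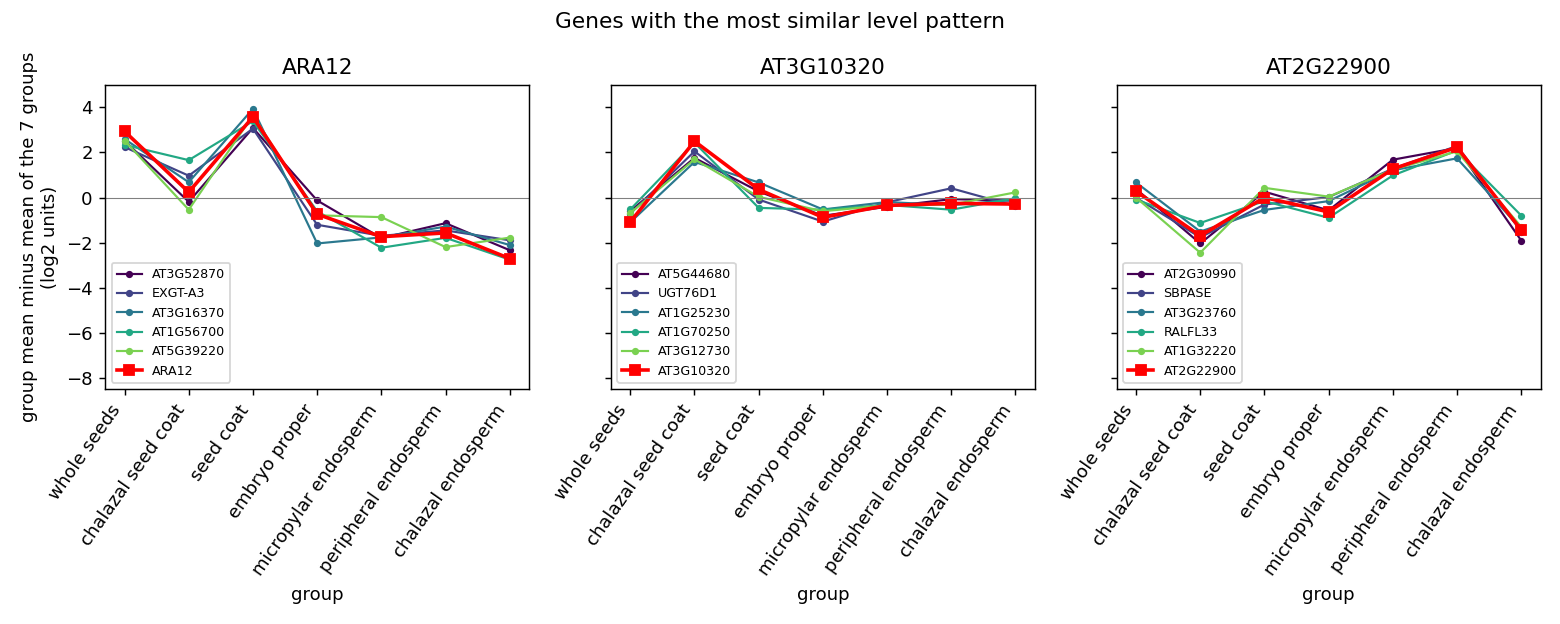
Group means minus each gene's mean over the 7 groups (vertical axis, log2 units) for each of the 3 genes (red squares) and its 5 nearest genes (thin lines), by group. The lines of ARA12 peak in seed coat (3.58 for ARA12), those of AT3G10320 in chalazal seed coat (2.50) and those of AT2G22900 in peripheral endosperm (2.23). The shared peaks follow from the choice of genes by pattern.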

How the data were processed

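The 16 ATH1 arrays were processed by the authors with GCOS, per the submitters' processing notes; version and settings: not given in the sources used here. What they deposited is linear signal intensity, with nearly equal trimmed means on all arrays. Array medians of 100.0 to 185 differed by a ratio of 1.85, so log2(signal + 30.2), with the 25th percentile of all values as offset, was centred on each array's median. This understates changes of dim genes. Probe sets above the 40th percentile of at least 2 arrays were tested, 19475 of 22746. One limma 3.58.1 model in R 4.3.3 (7 group means, eBayes with trend, two-sided, Benjamini-Hochberg at 0.05) gave 4 comparisons and 21 pairs. Probe sets naming 1 gene numbered 13513, several 503 and none 8730; loci came from RefSeq's TAIR10.1 gene table by gene ID. The genes and lists were chosen with earlier results of these data known. Named genes were the 3 genes, tested list genes and 5 nearest patterns for each. Alternatives were 10 settings and leaving out each of 16 arrays. On simulated data (seed coat against filial regions, 19475 probe sets) 1.49%, 47.8% and 98.5% of log2 changes of 1, 2 and 4 were recovered. Only 67, 67 and 66 probe sets were given these changes, whereas 2311 were called higher and 2481 lower in the data. The Benjamini-Hochberg cutoff depends on that number, so these shares need not hold for the data. Control background is a stand-in for detection calls, which were not analysed here. The number of arrays limits precision, and p-values reflect the spread among arrays, which may be technical in part. No 2 arrays held identical values.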

Additional observations from a re-analysis of the deposited data

How the results depend on the processing

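Of 183 values recomputed under the 10 processing alternatives (the 3 genes' differences in 4 comparisons, their counts of pairs, and counts of all called probe sets), 172 kept their direction and side of the threshold, or stayed within 1.5 times. The exceptions concern the chalazal seed coat against the seed coat, AT2G22900 pairs and whole seeds. With an offset of 1, AT3G10320 in chalazal seed coat against seed coat became 2.62 without a call (adjusted p = 0.185). For AT2G22900 in that comparison the difference lost its call at -1.90 with that offset, -1.27 with the median as offset, -1.64 without centring, -1.70 with quantile normalisation, without trend and without whole seeds, and -1.61 with a stricter filter. Pairs called for AT2G22900 fell to 7 with an offset of 1. Among list genes, that offset also ended the calls of AT5G15740 (RRT1), AT1G56100 (PMEI14) and SEU between both seed coat regions, of AT5G04160 (UUAT1) in seed coat and of AT1G23200 (HMS) in whole seeds. With 1 array left out, that SEU call was lost in 12 of 16 fits and the HMS call in chalazal seed coat in 6. Probe sets called in whole seeds against compartments, 696, became 412 with an offset of 1 and 1446 with array weights.

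Leaving out 1 array at a time gave 5.07 to 5.47 for ARA12 in seed coat against filial regions, 0.98 to 2.54 in chalazal seed coat against filial regions, -4.29 to -2.73 against seed coat and 3.09 to 3.76 in whole seeds against compartments. It gave 1.98 to 2.31 for AT3G10320 and -1.94 to -1.30 for AT2G22900 in chalazal seed coat against seed coat, 6 to 11 pairs for AT2G22900, and -0.21 to 0.86 for its uncalled whole seed difference. Called probe sets ranged from 2526 to 5252 in seed coat against filial regions, 975 to 2460 between both seed coat regions and 170 to 860 for whole seeds; an array left alone in its group was taken to have the spread of the rest. For AT1G23200 (HMS) the seed coat difference from filial regions ran from -0.10 to 2.46 and that between chalazal seed coat and seed coat from -0.99 to 1.56. List genes between both seed coat regions ran from 0 to 2 higher and from 3 to 6 lower, and list genes higher in whole seeds from 2 to 5. A fit with an array left out held fewer samples, and the size of a difference could move as well, as the ranges above show. The cause of a lost call was not tested.

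With the maximum control signal as background, ARA12 was above it on 14 arrays instead of 15, AT2G22900 on 13 instead of 14 and AT3G10320 on 3 in both. Scaling moved the median log2 difference of all tested probe sets, from -0.18 to -0.06 without centring for seed coat, from -0.10 to 0.08 for chalazal seed coat against filial regions and from -0.23 to 0.14 for whole seeds. The share of called probe sets that were higher moved from 44.7% to 55% for chalazal seed coat against filial regions, and for whole seeds from 73.9% to 93.5% without centring and 88% with quantile normalisation. Same-numbered arrays of different groups did not deviate together (1 of 43 correlations above 0.1), and 8 of 16 arrays correlated best with their own number. With the replicate block, called probe sets were 5099, 6337, 2539 and 818 in the order of the 4 comparisons, against 4792, 6088, 2112 and 696, and no call of the 3 genes in these comparisons changed.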
